A study of Mus musculus with 8 samples.

Results

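Planar cell polarity genes were followed in mouse embryos at the point where the neural tube starts to close. The 10 genes are Vangl1, Vangl2, Celsr1, Scrib, Ptk7, Dvl2, Fzd3, Fzd6, Prickle1 and Ankrd6, chosen by name among the 26608 genes that the count tables list. All 10 were found under these symbols, all 10 were counted somewhere among the 8 libraries, and 9 passed the filter on low counts that left 11779 genes for testing. The embryos were of the FVB strain at day 8.5 of gestation. Neural tube was cut from cryosections by laser microdissection on either side of closure site 1, in front of it where the tube was open and behind it where the tube had closed. The dams were diabetic or normal. How diabetes arose, and the number of embryos or litters behind each library, is not given in the sources used here. Nor is it given whether the open and the closed tissue were cut from the same embryos, in which case the libraries compared between regions would not be independent. Crossing region with dam gave 4 groups of 2 libraries: open tissue of normal dams (libraries 09 and 10), closed tissue of normal dams (11 and 12), open tissue of diabetic dams (13 and 14) and closed tissue of diabetic dams (15 and 16). With no statement that 2 libraries of a group came from separate animals, each p-value speaks only for the spread among these 8 libraries, which may be technical.

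Planar cell polarity is the system by which epithelial cells share a direction within the plane of the sheet. Frizzled receptors gather with Dishevelled on one face of a cell, Vangl proteins gather with Prickle on the opposite face, and Celsr cadherins bridge the faces of neighbouring cells. In the neural plate the pathway drives the convergent extension that narrows and lengthens the tissue. Mouse embryos that lack Vangl2, Celsr1, Scrib or Ptk7, or both Fzd3 and Fzd6, or Dvl2 together with Dvl1, leave the neural tube open along nearly its whole length, a defect that begins with failure at closure site 1.

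By the kit's design each transcript is counted by 1 short tag, so levels of different genes were not divided by gene length. Whether tags of different genes were captured and mapped equally was not tested, so levels compared between genes carry that limit. Tags of this kind start at the CATG nearest the 3′ end of the transcript, the cutting site of the enzyme NlaIII that such kits use. The labels name the kit and not the tag. The sequences below are therefore predicted tags: the 25 bases from that site in the longest RefSeq-matched complete transcript of each gene in GENCODE M21 on GRCm38. They are shown because, if the kit worked as designed, a gene is counted from a few bases close to the end of its transcript. They read 5′ to 3′, and the capitals mark the CATG site.

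Vangl1: CATGcccatttctttctttcttgcc
Vangl2: CATGtagaaaattgtaaaatgtaaa
Celsr1: CATGgcctggggtcacgcactgcca
Fzd3: CATGggctgtactgtcacggtagct
Fzd6: CATGtactgtatgggaaatgtaaat
Dvl2: CATGttgagggtgggtggtggtcag
Prickle1: CATGctggatttgaactaatgagcg
Ankrd6: CATGgaacttgtgtctcctatatgc
Ptk7: CATGggcggcctttgtattattgca
Scrib: CATGacgctgtgcagcagccgtcgg

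None of the 10 predicted tags was the last tag of another gene, or occurred at any CATG of another gene's transcripts. In 9 genes the tag lay after the coding end, and in Scrib it lay within the coding part. The site was 46 bases from the 3′ end in Ankrd6, the nearest, and 382 bases in Vangl1, the farthest. Vangl1 had 3 different last tags among its 4 complete transcripts, and Vangl2, Dvl2 and Ankrd6 had 2 each, while the other 6 genes had 1. Which of these tags were counted for a gene is not given in the sources used here. The reference is not the FVB strain and not mm9, the build of the counts, so the prediction was used for no value.

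Library totals ran from 5041586 to 16655583 counts, and all levels below are counts per 1000000 of that total (CPM). The tissue carried neural markers in every library, but library 13, open tissue of a diabetic dam, stood apart. Its 7 neural progenitor markers summed to 112 CPM, against 772 to 1087 CPM in the other 7 libraries, and Sox2 was at 30.9 CPM. Its 7 mesoderm markers summed to 1318 CPM, against 118 to 581 CPM elsewhere. Pdgfra, Twist1, Foxc1 and Foxc2 were highest there. Meox1 (184 CPM), Tcf15 (16.8 CPM) and Tbx6 (0.18 CPM) were not, and Meox1 and Tcf15 were at 228 and 30.7 CPM in library 15. Its endothelial and heart lists, at 293 and 171 CPM, were also the highest of the 8. In library 13 only 5 of 6 endothelial and 3 of 5 heart markers had a count, with Kdr, Nkx2-5 and Tnnt2 at 0. The surface ectoderm list was highest in library 13 too, at 324 CPM against 52.9 to 279 CPM elsewhere. That sum came mostly from Krt18 (197 CPM) and Krt8 (60.0 CPM). Cdh1, Epcam, Grhl3 and Tcfap2a were not highest there, with Tcfap2a at 0.18 CPM. Primitive blood markers summed to 917 and 1009 CPM in libraries 13 and 14 and to 209 CPM or less in the others, with 3 and 4 of the 5 markers counted in the first 2. Xist was at 301 and 297 CPM in libraries 10 and 12 and at 4.27 CPM or less in the other 6, called here the libraries without Xist. In bulk tissue, fewer cells of a type and less RNA per cell cannot be told apart. Fold changes of the tested members were also computed without each library in turn, and over the 6 libraries without Xist.

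The members spanned the range from abundant to barely counted. Fzd3 averaged 311 CPM over the 8 libraries, above 94.9% of the tested genes, and by itself gave between 38.3% (library 13) and 74.7% (library 09) of the summed CPM of the 10 genes. Scrib followed at 55.9 CPM, then Prickle1 at 35.6, Ptk7 at 19.7, Dvl2 at 16.6, Ankrd6 at 14.4, Vangl2 at 13.04, Fzd6 at 6.92, Vangl1 at 5.40 and Celsr1 at 0.37 CPM. Fzd3 was above Scrib in 8 of 8 libraries. Lower in the order, neighbours changed places: Ptk7 exceeded Dvl2 in 4 of 8 libraries, and Ankrd6 exceeded Vangl2 in 3 of 8. The plot of members by library shows each of these values.

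**Figure D1:**
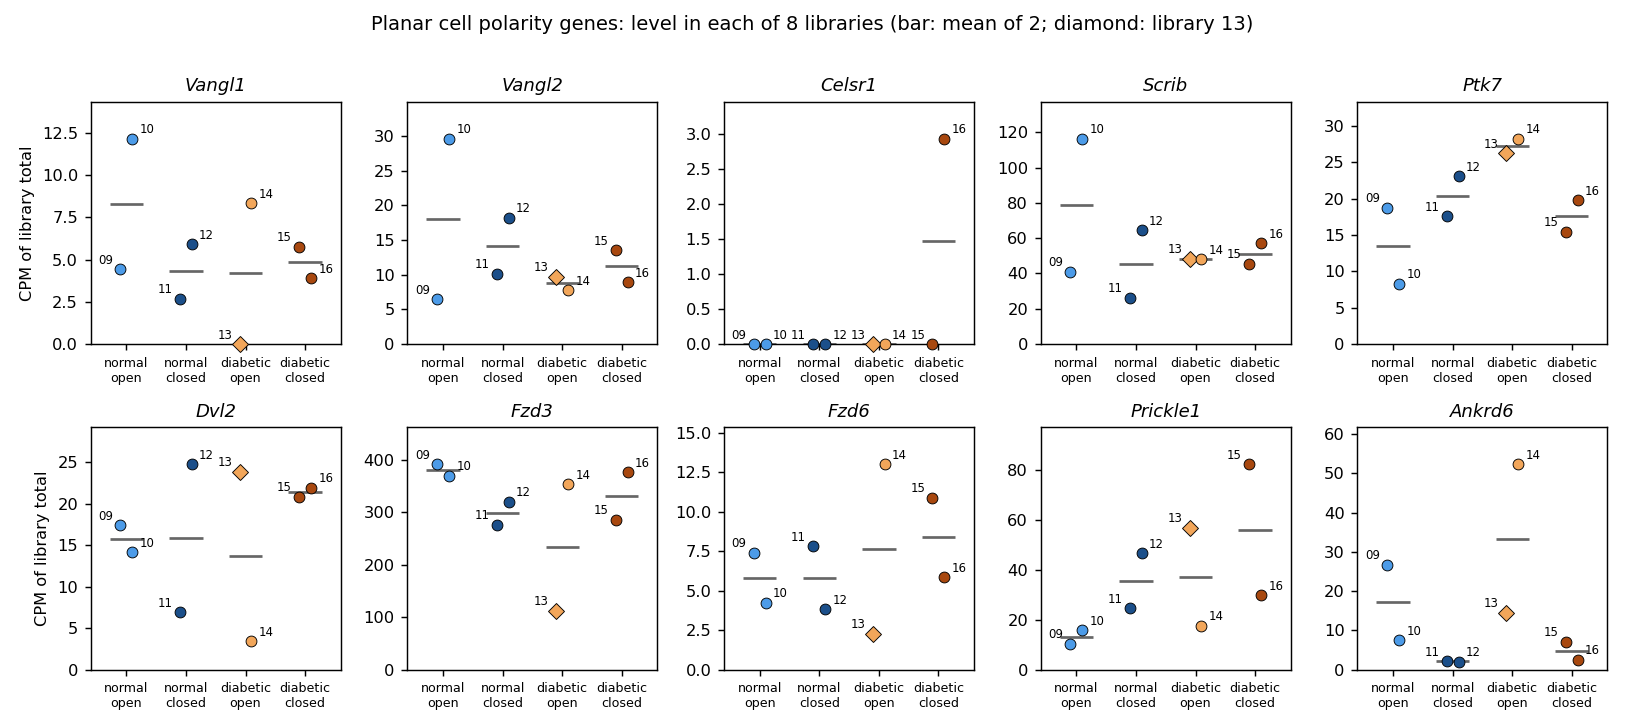
Level of each of the 10 genes in each of the 8 libraries (vertical axis, CPM of the library total, a separate scale for each gene; horizontal axis, the 4 groups of 2 libraries, numbered 09 to 16). Bars are means of 2 libraries and diamonds mark library 13. Ankrd6 is at or above 7.59 CPM in all 4 open libraries and at or below 7.14 CPM in all 4 closed ones, while the other genes overlap between regions.

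Fzd3 (chr14:65192449-65262463, minus strand, GRCm38) encodes a Frizzled receptor of the core complex. It was at 391.5 and 370 CPM in open tissue of normal dams, 276 and 320 in closed tissue of normal dams, 113 and 354 in open tissue of diabetic dams, and 286 and 377 in closed tissue of diabetic dams. Library 13 was the 1 low value, and the other 7 lay between 276 and 391.5 CPM. The log2 fold change was 0.12 (SE 0.33) for closed against open tissue and -0.29 (SE 0.33) for diabetic against normal dams. Without library 13 both values changed sign, to -0.22 and 0.05. That library also held the fewest neural marker counts; the part of its tissue makeup in the Fzd3 level was not tested.

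Fzd6 (chr15:39006034-39038188, plus strand) encodes the partner receptor that acts redundantly with Fzd3 in neural tube closure. Its level was 7.41 and 4.23 CPM in open and 7.84 and 3.85 CPM in closed tissue of normal dams, then 2.28 and 13.01 CPM in open and 10.9 and 5.86 CPM in closed tissue of diabetic dams. Both the lowest and the highest value fell in the open tissue of diabetic dams. Within the pair, Fzd3 gave 97.8% ± 1.01 (SD, n = 8) of the counts, from 96.3% to 98.9%. That dominance held in every library, including library 13, where the Fzd3 level was lowest.

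Vangl2 (chr1:172000960-172028444, minus strand) encodes the 4-pass membrane protein mutated in the Loop-tail mouse. Open tissue of normal dams had 6.42 and 29.6 CPM, and closed tissue of normal dams 10.2 and 18.2 CPM. Open tissue of diabetic dams had 9.73 and 7.76 CPM, and closed tissue of diabetic dams 13.5 and 8.93 CPM. The highest pair, 29.6 and 18.2 CPM, came from libraries 10 and 12, the ones with Xist, and the other 6 lay between 6.42 and 13.5 CPM. The log2 fold change for diabetic against normal dams was -0.69 (SE 0.64) over all 8 libraries and 0.26 over the 6 libraries without Xist. Both libraries with Xist came from normal dams.

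Vangl1 (chr3:102153583-102204693, minus strand), the other mammalian copy, was at 4.44 and 12.2 CPM in open and 2.67 and 5.92 CPM in closed tissue of normal dams. In diabetic dams it was at 0 and 8.36 CPM in open and 5.75 and 3.91 CPM in closed tissue. The 0 was in library 13, the most deeply counted, where a count of 0 in 16655583 allows up to 0.18 CPM by the 3-count limit. In each of the other libraries it had 15 to 70 counts. Vangl2 made up 71.6% ± 15.1 (SD, n = 8) of the counts of the pair, with 48.1% in library 14 and 100% of 162 counts in library 13. The 2 open libraries of diabetic dams thus held the lowest and the highest share.

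Celsr1 (chr15:85898929-86033777, minus strand) encodes the large cadherin that bridges neighbouring cells. It had no count in 7 libraries and 21 counts, 2.93 CPM with an exact 95% binomial interval of 1.81 to 4.48, in library 16, closed tissue of a diabetic dam. The 3-count limit in the other 7 ranged from 0.18 to 0.60 CPM, below that interval. The gene did not pass the filter and has no test. Its relatives were counted more often: Celsr2 was at 49.7, 14.3, 27.4 and 42.5 CPM in libraries 09 to 12, at 0.06 and 3.10 CPM in libraries 13 and 14, and at 22.0 and 38.1 CPM in libraries 15 and 16. Both open libraries of diabetic dams were thus below all other libraries for Celsr2, a pattern picked out after its values were seen. The share of all tested genes with that pattern was not computed. By edgeR's quasi-likelihood test the Celsr2 log2 fold change was 2.15 (SE 1.20, unadjusted p = 0.101) for closed against open tissue. For diabetic against normal dams it was -2.25 (SE 1.20, unadjusted p = 0.0886). Celsr1 was 6.46% of the counts of the 3 Celsr genes in library 16. These intervals and limits cover counting error only, and reads amplified by PCR are not independent molecules.

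Scrib (chr15:76047158-76069784, minus strand) encodes a cytoplasmic scaffold that interacts with Vangl2 and also sets apical and basal polarity. It was at 41.0 and 116 CPM in open and 26.2 and 64.6 CPM in closed tissue of normal dams. Diabetic dams gave 48.4 and 48.0 CPM in open and 45.4 and 57.1 CPM in closed tissue. The 4 diabetic libraries lay within a range of 1.26-fold, and the 4 normal libraries spread over 4.45-fold. The 2 highest values were again libraries 10 and 12. Over all 8 libraries the log2 fold change between dams was -0.27 (SE 0.40), and over the 6 without Xist it was 0.55, with an unadjusted p of 0.155.

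Ptk7 (chr17:46564471-46629504, minus strand) encodes a membrane protein with an inactive kinase domain that takes part in planar polarity and in Wnt signalling. Its level was 18.8 and 8.29 CPM in open and 17.6 and 23.1 CPM in closed tissue of normal dams, then 26.2 and 28.3 CPM in open and 15.5 and 19.8 CPM in closed tissue of diabetic dams. The open tissue of diabetic dams was highest, and library 13 did not stand apart. Ptk7 had the smallest gap between the 2 libraries of a group among the members, a mean of 0.50 on the log2 scale, where the median tested gene had 0.93. The log2 fold change was 0.01 (SE 0.49) for region and 0.38 (SE 0.49) for dam.

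Dvl2 (chr11:70000595-70012301, plus strand) encodes a Dishevelled protein, which carries the signal from Frizzled into the cell. It was at 17.4 and 14.1 CPM in open and 6.94 and 24.7 CPM in closed tissue of normal dams, and at 23.8 and 3.46 CPM in open and 20.8 and 21.9 CPM in closed tissue of diabetic dams. Library 14 was low, while library 13 of the same group was among the highest. Dvl2 gave 14.8% ± 6.76 (SD, n = 8) of the counts of the 3 Dishevelled genes, between 3.33% in library 14 and 24.8% in library 15. Dvl1, at 89.7 CPM, was the main copy by counts.

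**Figure D2:**
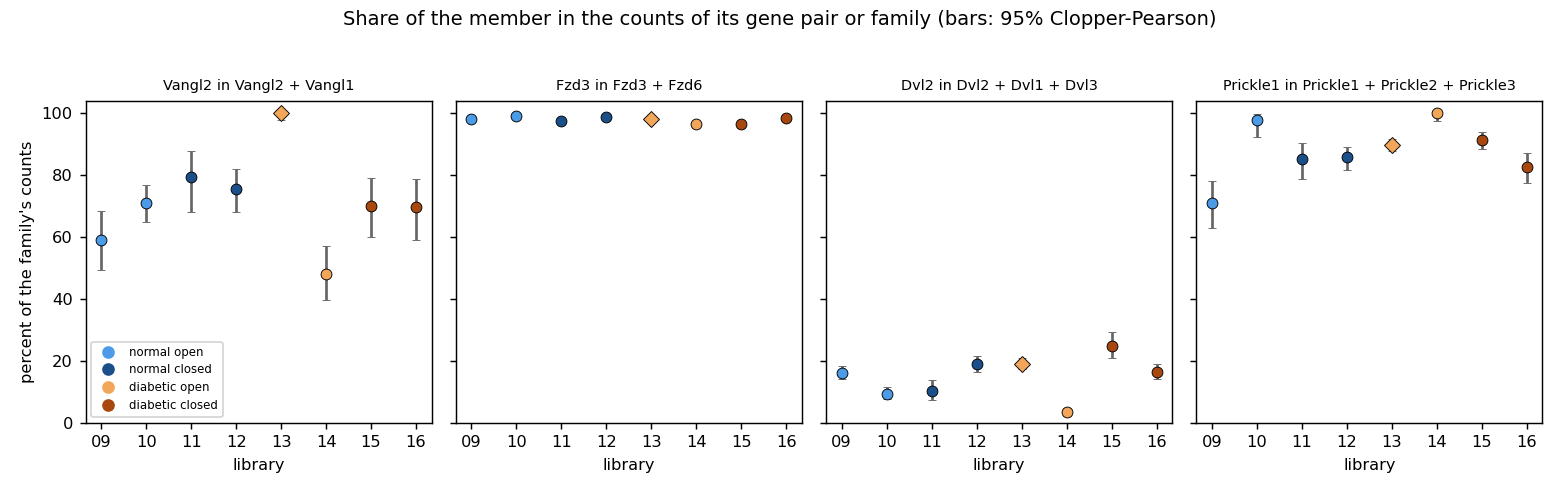
Share of Vangl2, Fzd3, Dvl2 and Prickle1 in the summed counts of their pair or family (percent, vertical axis) in each of the 8 libraries, with exact 95% binomial intervals. Fzd3 stays between 96.3% and 98.9%, while the Vangl2 share runs from 48.1% to 100%. The Celsr family is not drawn.

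Prickle1 (chr15:93499114-93595891, minus strand) encodes a LIM-domain protein that joins Vangl on its side of the cell. Open tissue of normal dams had 10.4 and 15.9 CPM and closed tissue of normal dams 24.6 and 46.8 CPM. Open tissue of diabetic dams had 57.0 and 17.7 CPM and closed tissue of diabetic dams 82.3 and 29.9 CPM. Closed tissue was above open tissue of normal dams in both libraries, and library 13 was the open library that reached into the closed range. The log2 fold change was 1.06 (SE 0.50, unadjusted p = 0.0566) for closed against open tissue and 1.07 (SE 0.50, unadjusted p = 0.0553) for diabetic against normal dams. Leaving out library 13 moved these to 1.57 and 0.57. The 4 closed values were 24.6 to 82.3 CPM and the other 3 open ones 10.4 to 17.7 CPM. Setting aside the 1 library that overlapped leaves such a gap by construction, so it is no support for a difference. How many of all tested genes would show such a gap without library 13 was not computed. With each library left out in turn, the value between regions ran from 0.77 (without library 12) to 1.57. That between dams ran from 0.57 to 1.40 (without library 16). In neither comparison did the unadjusted p stay on 1 side of 0.05 across these fits. Over the alternatives run on all 8 libraries, the unadjusted p between regions ran from 0.0151 (edgeR with no filter on low counts) to 0.159 (limma-voom). Between dams it ran from 0.0138 to 0.123, by the same settings. Over the 6 libraries without Xist the value between dams was 1.48 with an unadjusted p of 0.0419. Of the 3 Prickle genes, Prickle1 gave 87.9% ± 9.17 (SD, n = 8) of the counts.

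Ankrd6 (chr4:32804035-32950841, minus strand) encodes Diversin, an ankyrin-repeat protein that binds Dishevelled and is the vertebrate relative of the fly polarity protein Diego. It was at 26.8 and 7.59 CPM in open tissue of normal dams and at 14.5 and 52.3 CPM in open tissue of diabetic dams. In closed tissue it was at 2.14 and 2.07 CPM in normal dams and at 7.14 and 2.51 CPM in diabetic dams. All 4 closed libraries were below all 4 open ones, but the margin was narrow: the highest closed value, 36 counts in library 15 with an interval of 5.001 to 9.89 CPM, and the lowest open value, 43 counts in library 10 with an interval of 5.49 to 10.2 CPM, differed by less than counting error. Open tissue averaged 25.3 ± 19.7 CPM (SD, n = 4) and closed tissue 3.47 ± 2.46 CPM (SD, n = 4).

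The closed-to-open log2 fold change of Ankrd6 was -2.87 (SE 0.72), with an unadjusted p of 0.00220 and an adjusted p of 1.00 by edgeR's quasi-likelihood test over 11779 genes. It did not pass the threshold of 0.05. Within normal dams the log2 fold change was -3.00 (SE 1.10, unadjusted p = 0.0211) and within diabetic dams -2.75 (SE 1.07, unadjusted p = 0.0286). The interaction of region and dam was 0.25 (SE 1.42, unadjusted p = 0.864), so a difference between the dams in this value was not detectable. These contrasts come from 1 model of the same 8 libraries. With 1 library left out at a time the value over all libraries stayed between -3.28 and -2.37, with unadjusted p-values from 0.000477 to 0.0243. The value within normal dams was -1.77 (unadjusted p = 0.142) without library 09, and that within diabetic dams was -1.51 (unadjusted p = 0.289) without library 14. DESeq2 gave an adjusted p of 0.0649 and edgeR with no filter on low counts gave 0.0903. Over the alternatives run on all 8 libraries the adjusted p ran from 0.0649 to 1.00. Limma-voom gave a log2 fold change of -2.68 (SE 1.20, unadjusted p = 0.0419). Within normal and within diabetic dams its unadjusted p-values were 0.163 and 0.137, where DESeq2 gave 0.00576 and 0.00863. Primitive blood markers, of which 1 to 4 of 5 had a count in a library and Hbb-y had none in any, summed to 63.3, 1.06, 917 and 1009 CPM in libraries 09, 10, 13 and 14. They were at 0.36, 0.30, 4.36 and 209 CPM in the closed libraries 11, 12, 15 and 16. Their part in the Ankrd6 difference was not tested.

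**Figure D3:**
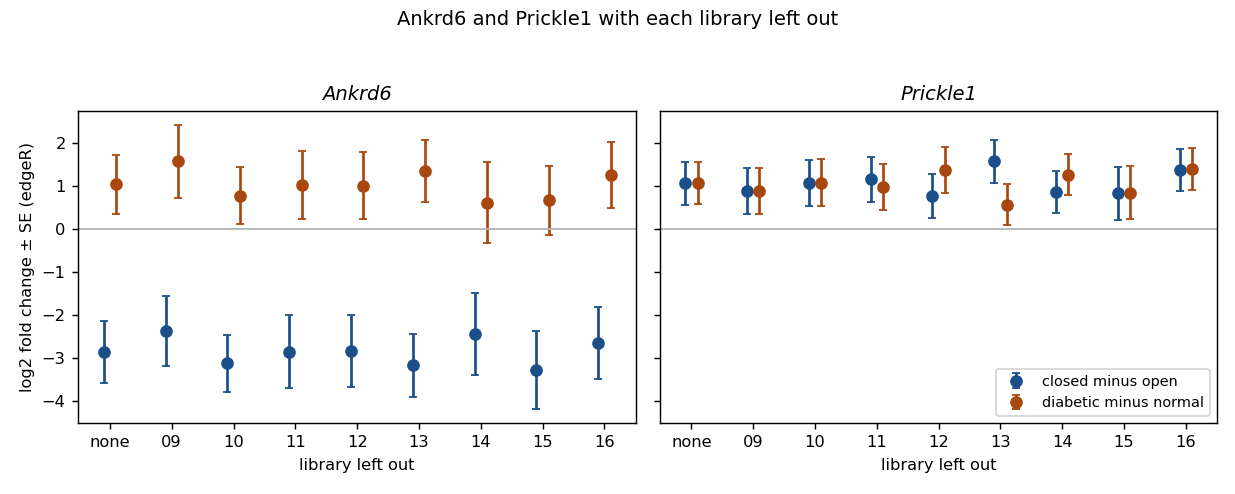
Log2 fold changes with SE (vertical axes) for Ankrd6 and Prickle1 when each of the 8 libraries is left out in turn, for closed against open tissue and for diabetic against normal dams. Ankrd6 for region stays between -3.28 and -2.37, while Prickle1 moves to 1.57 for region and 0.57 for dam when library 13 is left out.

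Between open and closed tissue, 1 of the 9 tested members, Ankrd6, had an unadjusted p below 0.05, where 391 of the 11779 tested genes (3.32%) did. For lower levels in closed tissue the counts were the same 1 member and 119 genes (1.01%). Groups that did not overlap in either direction were found for 1 member and for 2.75% of all tested genes, and closed libraries all below open ones for 1 member and for 1.07%. No member and no gene (0%) passed the adjusted threshold by edgeR, and DESeq2 called 9 genes, none of them a member. The 9 fold changes had a median of 0.06 on the log2 scale, with 6 of 9 higher in closed tissue. Over all tested genes the median was 0.07, with 55.5% higher. A single member is too few to set against these shares.

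Between dams, 0 of the 9 tested members had an unadjusted p below 0.05, against 536 tested genes (4.55%). No member's diabetic and normal libraries were apart, against 3.63% of tested genes (2.48% with all diabetic libraries higher and 1.15% with all lower). The adjusted threshold was passed by 0% of genes by edgeR and by 37 genes, no member among them, by DESeq2. The log2 values beside those already given were -0.42 (SE 1.41) for Vangl1, 0.09 (SE 0.66) for Dvl2, 0.44 (SE 0.90) for Fzd6 and 1.04 (SE 0.68) for Ankrd6. For region they were -0.31 (SE 1.41) for Vangl1, 0.06 (SE 0.64) for Vangl2, -0.30 (SE 0.40) for Scrib, 0.37 (SE 0.67) for Dvl2 and 0.11 (SE 0.90) for Fzd6. The median over the 9 members was 0.09 between dams, with 5 of 9 higher in diabetic dams, and the median over all tested genes was 0.04, with 52.7% higher. The standard errors show how coarse the comparison was for genes with few counts: for Vangl1 an SE of 1.41 is larger than any fold change found between dams among the 9.

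**Figure D4:**
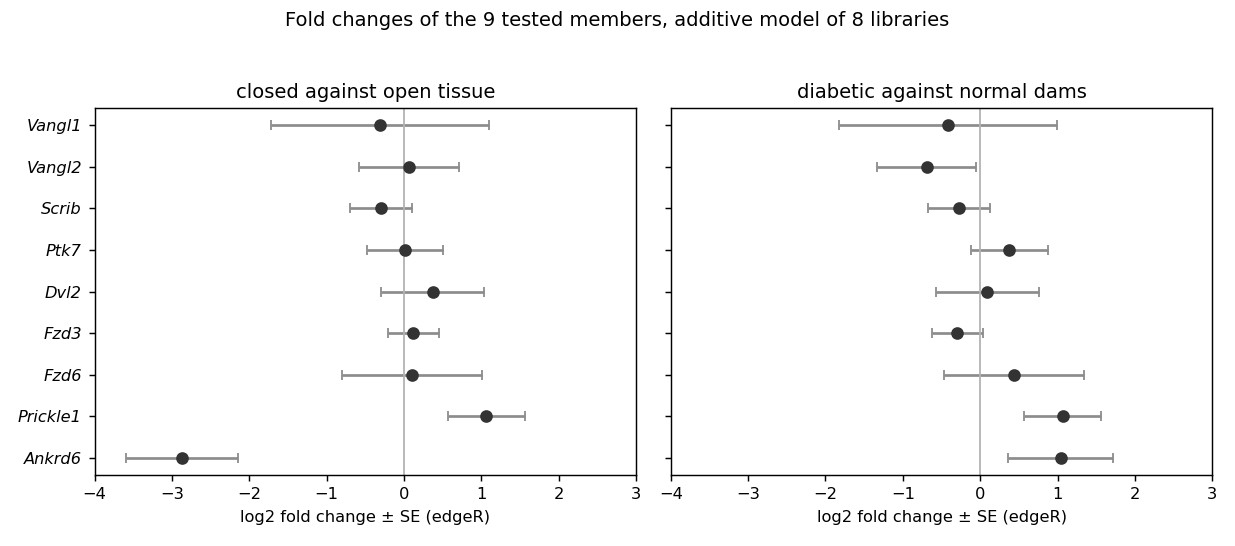
Log2 fold change ± SE (horizontal axes) of the 9 tested genes for closed against open tissue and for diabetic against normal dams, from the model of region and dam over 8 libraries. Ankrd6 at -2.87 for region lies farthest from 0, and Prickle1 is at 1.06 for region and 1.07 for dam.

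In the contrasts within groups, the members' share past an unadjusted p of 0.05 was 1 of 9, Ankrd6, for region in normal dams (3.4% of all tested genes, 1.09% counting lower levels alone) and the same gene for region in diabetic dams (2.78%, and 0.501% counting lower levels alone). It was 0 of 9 for dam in open tissue (7.22%), 0 of 9 for dam in closed tissue (1.17%) and 0 of 9 for the interaction (3.74%). By the adjusted p, edgeR called 0% of genes in each. These contrasts share libraries with each other and with the comparisons above.

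The wider pathway was described with 57 further genes in 6 subgroups, of which 56 were listed in the files, 54 had a count and 52 were tested. In both comparisons 26 were higher and 26 lower, with medians of -0.01 for region and 0.01 for dam on the log2 scale. None passed the adjusted threshold. For region none had an unadjusted p below 0.05, where 3.32% of all tested genes did. None had groups that did not overlap, where 2.75% of all tested genes did. Among other copies of core components, Fzd7 at 932 CPM and Fzd2 at 503 CPM were above Fzd3, the most abundant of the 10 members. Among ligands, co-receptors and matrix modifiers, the proteoglycan Sdc4 was at 144 CPM and the Wnt5a receptor Ror2 at 50.4 CPM. The scaffold gene Llgl1 averaged 296 CPM and Sec24b, which sorts Vangl2 into transport vesicles, 125 CPM. The small GTPase gene Rac1, at 638 CPM, led the effectors on actin and myosin. Ciliary polarity effectors were led by Cplane1 (29.4 CPM) and Rpgrip1l (21.2 CPM), and the Fat and Dachsous cadherins by Fat1 (41.4 CPM) and Dchs1 (21.4 CPM).

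Between dams, 3 of the 52 had an unadjusted p below 0.05, 2 higher and 1 lower in diabetic dams. Of all tested genes 4.55% did, 350 of them higher and 186 (1.58%) lower. Groups without overlap between dams were found for 1 of the 52 (1.92%) with diabetic libraries higher, against 2.48% of all tested genes. With diabetic libraries lower it was also 1 of the 52, against 1.15% of all tested genes. Rpgrip1l and Fat4 are the genes described here.

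Rpgrip1l is a gene of the transition zone of the cilium. Normal dams had 27.3, 27.5, 40.4 and 24.7 CPM and diabetic dams 1.38, 9.79, 22.0 and 16.6 CPM, with no overlap, as for 1.15% of tested genes. The log2 fold change was -1.54 (SE 0.64, unadjusted p = 0.0358). With 1 library left out at a time it ran from -1.87 (without library 14) to -1.04 (without library 13). Its unadjusted p did not stay below 0.05 in all of these fits, and library 13 was not the only such case. Fat4, a giant cadherin, had 0 counts in all 4 normal libraries and 49, 0, 5 and 42 counts in libraries 13 to 16 (unadjusted p = 0.0321). One diabetic library was thus also at 0, and the unadjusted p was 0.113 without library 13 and 0.163 without library 16. Having no count in normal dams, Fat4 passed the filter on low counts only through diabetic libraries. Its p-value, its direction and its place among the genes counted above are therefore not free of that selection. Of the 7 ciliary effectors, 1 was higher and 6 lower in diabetic dams, with a median of -0.79. The 4 tested genes of the Fat and Dachsous system, Fat4 included, were all higher, with a median of 0.58 and SEs from 0.50 to 2.77. Of all tested genes 52.7% were higher in diabetic dams. These subgroups are small and were not tested as groups.

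**Figure D5:**
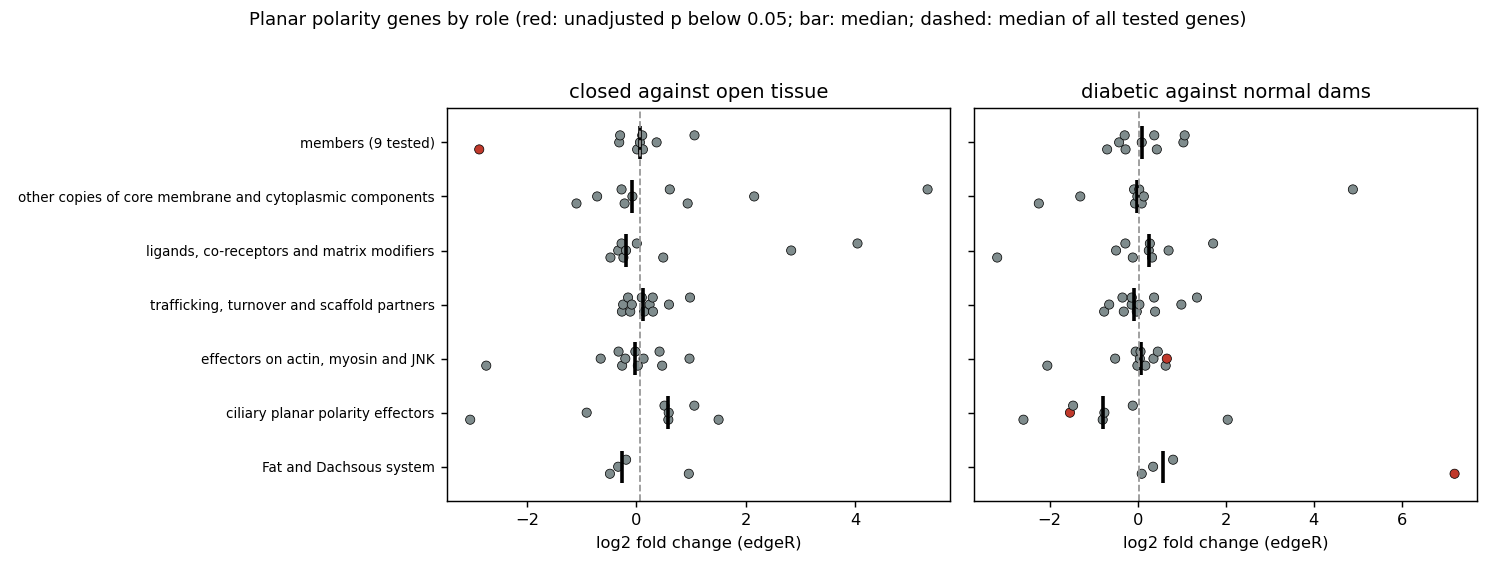
Log2 fold changes of the tested genes of each pathway subgroup (horizontal axes; points are genes, red where the unadjusted p was below 0.05, bars are subgroup medians and the dashed line is the median of all tested genes) for closed against open tissue and for diabetic against normal dams. Points lie on both sides of 0 in each subgroup except the Fat and Dachsous system between dams, and 26 of 52 genes outside the members are higher in each comparison.

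Profiles across the 8 libraries were compared with those of 6942 tested genes of at least 10 CPM by Pearson's r. It was taken on log2 CPM with a prior count of 2, from library totals adjusted by the TMM scaling of the fold changes. All libraries share their 4 groups and their tissue makeup, so the r values are descriptions. Nearest to Ankrd6 were Ugdh (r = 0.954), whose enzyme makes a sugar precursor of glycosaminoglycans, the nucleoside diphosphate kinase gene Nme2 (r = 0.924) and Dram2 (r = 0.916). Ugdh was at 37.9, 21.5, 34.2 and 42.7 CPM in the open libraries and at 16.4, 13.8, 23.6 and 20.6 CPM in the closed ones, with 1 closed library above the lowest open one. Nearest to Prickle1 were Pdf (r = 0.954), Pcid2 (r = 0.928) and the homeobox gene Hoxb1 (r = 0.918).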

How the data were processed

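Laser-cut neural tube was profiled with SOLiD SAGE, from 7 ng of total RNA per library, per the labels' protocols. The authors deposited raw tag counts per gene symbol, on build mm9 (submitters' processing notes). Aligner, counter, annotation and strandedness were not given in the sources used here, so overlapping and antisense genes and near-identical copies are uncertain. Levels are counts divided by the library total. Fold changes come from edgeR 4.0.16 in R 4.3.3: TMM scaling, a filter by filterByExpr with the 4 groups, at a minimum count of 10 and a total of 15, the quasi-likelihood F test and Benjamini-Hochberg adjustment over all 11779 tested genes at 0.05. Region and dam were tested in an additive model, and within-group contrasts in a model of 4 groups. SEs are those implied by the F statistic. The fit was tested on simulated data. Alternatives used limma 3.58.1, DESeq2 1.42.0, other scalings and filters, and 1 library left out. All members are named. Other pathway genes are named if among the 2 most abundant of their subgroup or with an unadjusted p below 0.05 in an additive comparison, except that some results meeting this rule are not reported here. Celsr2 and Dvl1 were added after their values were seen. The members and lists were chosen with earlier results of these data known. Gene coordinates and predicted tags are from GRCm38 and serve for identity only. Intervals are Clopper-Pearson at 95%.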

Additional observations from a re-analysis of the deposited data

Results flagged for a closer look

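In sets of 4 libraries (open, closed, normal, diabetic), a library was noted where its gap to the nearest other divided by the range of the set exceeded Dixon's 95% critical value. Of 56 sets examined 10 had one. The critical value gives about 1 in 20 by chance for independent values with a normal distribution. These levels and shares are bounded at 0, and the sets overlap and are not independent. The 10 of 56 can therefore not be set against that rate. Library 10 was high among open libraries for Vangl2 (29.6 CPM) and Scrib (116 CPM); it is 1 of the 2 libraries with Xist. Library 13 was low for Fzd3 (113 CPM) and high for Prickle1 (57.0 CPM) among open libraries; it also had the lowest neural and highest mesoderm marker sums. Library 14 was low for Dvl2 among diabetic libraries (3.46 CPM). Library 15 was high for Ankrd6 among closed libraries (7.14 CPM). Library 16 was the only one with Celsr1 counts, at 2.93 CPM and 6.46% of its family, both among closed and among diabetic libraries. Each of these Celsr1 sets repeats the same 21 counts, and with the other values at 0 the ratio is 1 by construction.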

How the results depend on the processing

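No paired analysis was possible because no library number occurs in more than 1 group and the labels name no shared embryo or litter; a pairing of open with closed tissue, if there was one, is not known. The calls of members at the adjusted threshold stayed at 0 under every alternative run. DESeq2 called 9 (region), 37 (dam), 27 (region, normal dams), 46 (region, diabetic dams), 195 (dam, open), 2 (dam, closed) and 17 (interaction) genes, and edgeR without a filter called 29, 89, 22, 41, 138, 11 and 23, where the main test called 0 in each; limma-voom called 1 in region within diabetic dams, in dam within open tissue and in the interaction. With 1 library left out the called genes ranged over 0 to 3, 0 to 2, 0 to 18, 0 to 21, 0 to 61, 0 to 3 and 0 to 9 in the same order. Members with an unadjusted p below 0.05 numbered 2 for region without a filter, 1 for dam with DESeq2, without a filter and over the 6 libraries without Xist, and 1 to 2 for region and 0 to 1 for dam with 1 library left out.

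Ptk7 for region went to -0.022 with library totals, -0.0105 with DESeq2 size factors, -0.0115 with DESeq2, -0.12 with limma-voom and -0.42 without the Xist libraries. Limma-voom gave 0.84 for Vangl1 (region) and -0.19 for Fzd6 (dam). Without the Xist libraries, a setting chosen after seeing the data, the dam values were 0.32 for Vangl1, 0.26 for Vangl2 and 0.55 for Scrib. With 1 library left out, region values ran from -0.84 to 0.66 (Vangl1), -0.18 to 0.69 (Vangl2), -0.47 to 0.14 (Scrib), -0.31 to 0.21 (Ptk7), -0.0198 to 0.93 (Dvl2), -0.22 to 0.37 (Fzd3) and -0.23 to 0.72 (Fzd6), dam values from -1.39 to 0.11 (Vangl1), -0.56 to 0.17 (Scrib), -0.46 to 0.48 (Dvl2), -0.55 to 0.0452 (Fzd3) and -0.17 to 0.77 (Fzd6), and the Ankrd6 interaction from -0.96 to 1.504. The cause was not tested. A group left with 1 library is assumed to vary like the others. Counts of 0 limit Vangl1 and Celsr1.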
